A study of Mus musculus with 2 samples.

Results

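The 37 genes encoded in mouse mitochondrial DNA were followed in single-cell RNA libraries of Terc-deficient embryonic stem cells. They were found by the mt- prefix of their symbols, 37 of 38458 gene columns in each table: 13 mRNAs, 2 rRNAs and 22 tRNAs. The cells are DKO741, a single Terc knock-out clone of E14 mouse embryonic stem cells in which both copies of the telomerase RNA gene had been targeted, with the neo cassette of the first targeting removed by Cre. One sample, PD100, was collected at passage 100, before cells of this line maintained telomeres by the alternative lengthening of telomeres (ALT), and the other, PD800, at passage 800, after ALT was established. Feeder cells were used for stock cultures but not for the cells sampled, and every cell of both libraries carried the same knock-out.

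Each passage gave 1 inDrops library, in which a count is a unique molecular identifier (UMI), so passage cannot be told apart from anything else that differed between the 2 libraries. No test was possible, and each interval below is a 95% interval for counting error only. Barcodes with at least 1000 UMIs and at most 20% mt- UMIs were kept, which left 814 PD100 cells with 1826233 UMIs and 900 PD800 cells with 2580963 UMIs. Median depth was 2151 and 2702 UMIs per cell, and 8 barcodes occurred among the kept cells of both libraries. Terc had 0 UMIs in both libraries, which allows up to 1.64 and 1.16 CPM (counts scaled to a library total of 1000000), but telomerase RNA lacks the poly(A) tail used for capture, so this does not check the knock-out. All 10 embryonic stem cell markers were detected in both libraries, the 8 fibroblast feeder markers summed to 29 and 33 UMIs with Col1a1 and Lum at 0 in PD100 and Dcn at 0 in PD800, and the 11 extraembryonic endoderm markers summed to 1970 UMIs in PD100 and 371 in PD800, where Gata6, Srgn and Ctsh were at 0. The 5 trophoblast markers summed to 653 and 96 UMIs with Cdx2 at 0 in PD100, and the 6 2-cell-like markers to 74 UMIs in PD100 and 1 in PD800, and the part of any of these cells in the mt- results was not tested beyond leaving out the endoderm-marker cells.

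Mitochondrial DNA is a small circle that is read on both strands as long precursor RNAs. Most of the coding lies on one strand, and tRNAs that punctuate the precursor are cut out to release the mRNAs and rRNAs between them. The mRNAs encode core subunits of respiratory complexes I, III and IV and of the ATP synthase, whereas the rRNAs and tRNAs serve the ribosome of the organelle. Capture on oligo-dT reads RNA through its tail or through internal runs of A. Mitochondrial mRNAs carry tails, the rRNAs carry short ones, and mature tRNAs end in CCA.

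Sequences that may bear on the counts are shown from the GENCODE M21 transcripts on GRCm38, all on the + strand. The ends of mt-Co1 (chrM:6843-6872) and mt-Nd1 (chrM:3678-3707), the members whose shares moved furthest in either direction among the abundant ones, are shown with the stop codon in capitals.
mt-Co1 end: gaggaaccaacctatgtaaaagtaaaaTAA
mt-Nd1 end: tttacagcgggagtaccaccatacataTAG
Open reading frames overlap by 7 bases where mt-Nd4l meets mt-Nd4 (chrM:10147-10193) and by 43 bases where mt-Atp8 meets mt-Atp6 (chrM:7907-7989), with the overlap in capitals. A read within the capitals cannot be told apart between the neighbours.
mt-Nd4l and mt-Nd4: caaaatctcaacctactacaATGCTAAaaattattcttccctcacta
mt-Atp8 and mt-Atp6: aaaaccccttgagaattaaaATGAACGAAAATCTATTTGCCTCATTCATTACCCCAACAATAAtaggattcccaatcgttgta
mt-Tt, the only tRNA with more than 3 UMIs in either library, directly follows mt-Cytb (chrM:15269-15355) and is in capitals. The mt-Cytb frame ends there on a bare T, the first base of a stop codon that the tail completes.
mt-Cytb and mt-Tt: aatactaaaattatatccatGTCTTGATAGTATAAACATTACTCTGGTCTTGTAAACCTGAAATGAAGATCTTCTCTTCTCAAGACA
The longest runs of A within the rRNAs are in capitals as places an oligo-dT primer could anneal, 5 bases in mt-Rnr1 (chrM:685-729) and 7 in mt-Rnr2 (chrM:1468-1514). Such runs are not particular to the rRNAs: mt-Nd2 has one of 8 bases, as does mt-Tr, which had no UMI. Capture at these runs was not tested.
mt-Rnr1: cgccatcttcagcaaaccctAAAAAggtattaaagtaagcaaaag
mt-Rnr2: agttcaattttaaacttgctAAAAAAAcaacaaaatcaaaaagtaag

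The mt- genes as a sum were 3.70-fold higher in PD800. Their UMIs numbered 22892 in the PD100 library, or 12535 CPM (12373 to 12699), and 119567 in the PD800 library, or 46327 CPM (46064 to 46590). The log2 ratio of PD800 over PD100 was 1.89 (1.87 to 1.91), whereas the median over the 6984 genes with at least 50 UMIs in the libraries together was -0.34. Relative to a scaling on that median, the summed log2 ratio was 2.23.

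Nearly every PD800 cell had a larger mt- share than nearly every PD100 cell. The share of a cell's UMIs that were mt- ran from 0 to 5.27% in PD100 with a median of 1.23% (quartiles 0.923% and 1.59%). In PD800 it ran from 0 to 18.4% with a median of 4.42% (quartiles 3.67% and 5.36%). Of the 900 PD800 cells, 889 lay above the 95th percentile of PD100, 239 lay above the highest PD100 cell, and a PD800 cell exceeded a PD100 cell in 0.993 of pairs. No mt- UMI was seen in 2 PD100 cells and 1 PD800 cell. The share was weakly lower in deeper cells of each library (Spearman coefficient -0.26 over PD100 cells and -0.10 over PD800 cells, both quantities sharing the cell total), and PD800 was the deeper library.

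**Figure D1:**
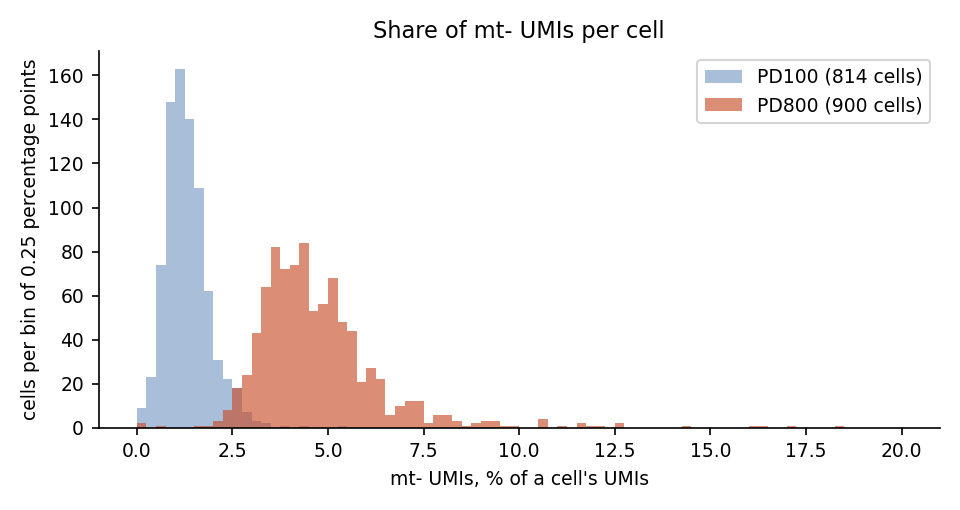
Histogram of the share of mt- UMIs per cell (x axis, % of a cell's UMIs; y axis, cells per bin of 0.25 percentage points) in 814 PD100 and 900 PD800 cells. The bulk of each library stands apart, around medians of 1.23% and 4.42%, and the PD800 cells have the longer upper tail, up to 18.4%.

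The 3 RNA classes did not move by the same amount. The 13 mRNAs gave 22659 and 116360 UMIs (log2 ratio 1.86, 1.84 to 1.88) and made up 99.0% and 97.3% of the mt- UMIs. The 2 rRNAs gave 218 and 3185 UMIs, 119 CPM (104 to 136) against 1234 CPM (1192 to 1278), which is 10.3-fold higher in PD800 (log2 ratio 3.37, 3.17 to 3.57). The 22 tRNAs gave 15 and 22 UMIs, 8.21 CPM (4.60 to 13.5) against 8.52 CPM (5.34 to 12.9), with a log2 ratio of 0.05 whose interval, -0.96 to 1.10, spans both directions.

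Set against the mRNAs within the same library, the rRNAs were higher in PD800, and the tRNAs, mostly mt-Tt, were lower. There were 9.62 rRNA UMIs per 1000 mRNA UMIs in PD100 and 27.4 in PD800 (log2 change 1.51, 1.31 to 1.71). tRNA UMIs per 1000 mRNA UMIs went from 0.662 to 0.189 (log2 change -1.81, -2.82 to -0.76), though in cells of 1000 to 2000 UMIs the change was -1.27 (-3.70 to 1.15) and spanned both directions. mt-Tt gave 13 of the 15 tRNA UMIs in PD100 and 17 of the 22 in PD800. The other 21 tRNAs gave 2 and 5 UMIs. Their share of the mt- UMIs had a log2 ratio of -1.06 (-3.67 to 2.33), which spans both directions. Since rRNAs and tRNAs are poorly captured by a poly(A) method, these ratios describe captured RNA and not the stoichiometry in the cell.

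Of the 37 members, 14 passed the minimum of 50 UMIs over both libraries, namely 12 mRNAs and both rRNAs. mt-Nd3 and mt-Nd4l reached it only through PD800, where they were high, so their place in the counts that follow rests on that. Among these 14, 13 were at least 2-fold higher in PD800, where 9.22% of all tested genes were, and 10 were at least 4-fold higher, against 3.54% of tested genes. Of the 12 members with at least 50 UMIs in PD100 alone, 11 were at least 2-fold and 8 at least 4-fold higher, beside 5.59% and 2.47% of the 4774 genes with as many in PD100. No member of the 14 was at least 2-fold lower, against 16.9%. mt-Co1, the member below 2-fold, also passed it on the scale set by the median gene (log2 ratio 1.18). Below that minimum, 6 members had some UMIs (mt-Nd6 and the tRNAs mt-Tl1, mt-Ti, mt-Tw, mt-Tg and mt-Tt), and 17, all tRNAs, had none in either library.

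**Figure D2:**
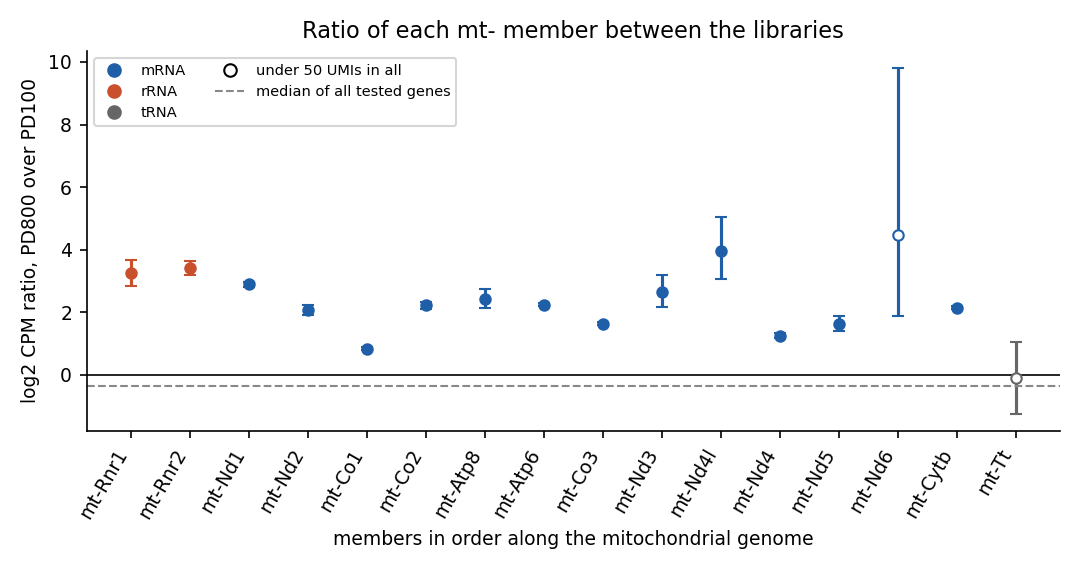
Log2 CPM ratio of PD800 over PD100 (y axis) for the 14 members with at least 50 UMIs, and for mt-Nd6 and mt-Tt as open points, in their order along the mitochondrial genome (x axis). Bars are 95% counting intervals and the dashed line is the median of all tested genes, -0.34. Among the filled points the rRNAs, mt-Nd1 and mt-Nd4l stand highest and mt-Co1 lowest. mt-Nd3 and mt-Nd4l passed the minimum only through PD800, where they were high.

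Complex IV mRNAs had the lowest ratio of the complexes. mt-Co1, mt-Co2 and mt-Co3 encode the catalytic core of cytochrome c oxidase and together had a log2 ratio of 1.27 (1.23 to 1.30). mt-Co1 (chrM:5328-6872) gave 6261 and 15837 UMIs, or 3428 CPM in PD100 and 6136 CPM in PD800, a ratio of 1.79-fold (log2 0.84, 0.80 to 0.88). mt-Co3 gave 1642 and 5101 CPM (log2 1.64, 1.58 to 1.69). mt-Co2 gave 421 and 1965 CPM (log2 2.22, 2.11 to 2.33), so that the 3 subunits of one enzyme differed by more than counting error.

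Complex I mRNAs, which encode membrane subunits of NADH dehydrogenase, spread widely. mt-Nd1 gave 925 and 6864 CPM, 7.42-fold higher in PD800 (log2 2.89, 2.82 to 2.96). mt-Nd2 gave 226 and 948 CPM (log2 2.07), and mt-Nd3 gave 20.3 and 128 CPM (log2 2.66, 2.17 to 3.19). mt-Nd4 gave 1087 and 2598 CPM (log2 1.26, 1.18 to 1.33), and mt-Nd5, the longest mRNA, gave 96.4 and 299 CPM (log2 1.63, 1.39 to 1.88). mt-Nd4 and mt-Nd5 had lower ratios than the other tested complex I members.

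mt-Nd4l had the highest ratio of the tested members, on few counts. It passed the minimum only through PD800, where it was high, so its rank rests partly on that. It gave 10 and 221 UMIs (log2 3.97, 3.06 to 5.05), and its cells with a UMI went from 0.983% to 20.2%. mt-Nd4l and mt-Nd4 are carried on one mRNA, yet mt-Nd4l UMIs per 1000 mt-Nd4 UMIs went from 5.04 to 33.0 (log2 change 2.71, 1.80 to 3.79). The other shared mRNA behaved differently. mt-Atp8 UMIs per 1000 mt-Atp6 UMIs were 24.4 and 27.9 (log2 change 0.20, -0.10 to 0.51), no more apart than counting error. The members of each pair share sequence with nuclear genes to different extents, and the part of that in these ratios was not tested.

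mt-Nd6 is the only mRNA on the other strand, and all light-strand UMIs came from it. It gave 1 UMI in PD100 and 31 in PD800, or 0.548 and 12.0 CPM, a ratio of 21.9-fold with a counting interval on the log2 scale from 1.87 to 9.80. The 8 tRNAs of that strand had no UMI. mt-Nd6 overlaps mt-Nd5 by 14 bases on the opposite strand, and whether strand was used in counting is not given in the sources used here.

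Cytochrome b and the ATP synthase mRNAs moved nearly in step. mt-Cytb, the complex III core subunit, gave 2207 and 9789 CPM (log2 2.15, 2.10 to 2.20). mt-Atp6 gave 2293 and 10855 CPM (log2 2.24, 2.20 to 2.29), and mt-Atp8 gave 55.9 and 303 CPM (log2 2.44, 2.14 to 2.75). The intervals of mt-Atp6 and mt-Atp8 overlap.

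Both rRNAs were higher in PD800 by similar amounts. mt-Rnr1, the small-subunit rRNA, gave 55 and 739 UMIs, or 30.1 and 286 CPM (log2 3.25, 2.85 to 3.67). mt-Rnr2, the large-subunit rRNA, gave 163 and 2446 UMIs, or 89.3 and 948 CPM (log2 3.41, 3.18 to 3.65). mt-Rnr2 UMIs per 1000 mt-Rnr1 UMIs were 2964 and 3310 (log2 change 0.16, -0.07 to 0.40), so the balance of the pair did not differ beyond counting error. A UMI of mt-Rnr2 was found in 13.4% of PD100 cells and 76.1% of PD800 cells, and after thinning each cell to 1000 UMIs in 7.86% and 54.6%. No cell type lacks these genes, so the part of such shares that comes from free RNA could not be measured.

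Among the tRNAs, counts were too few to show a difference of moderate size. mt-Tt, the threonine tRNA, gave 13 and 17 UMIs (log2 -0.11, -1.24 to 1.05). mt-Tg, the glycine tRNA, gave 0 and 3 UMIs, and mt-Tw, the tryptophan tRNA, gave 1 and 1. For the 17 tRNAs without a UMI, a count of 0 allows up to 1.64 CPM in PD100 and 1.16 CPM in PD800. mt-Tt UMIs per 1000 UMIs of its neighbour mt-Cytb went from 3.23 to 0.673 (log2 change -2.26, -3.39 to -1.10).

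Per length of the annotated gene, the order of levels was alike at its top and changed within it. That top depends on the division by length, although UMIs count captured molecules. By UMIs mt-Co1 led in PD100, with 6261 against 4187 for mt-Atp6. In PD800 mt-Atp6 led with 28016, and mt-Co1 ranked 4 with 15837. Per kb, mt-Atp6 was highest in both libraries, at 3367 and 15940 CPM per kb. In PD100 mt-Co1 was next at 2219 CPM per kb, followed by mt-Co3 at 2094 and mt-Cytb at 1929. In PD800 mt-Cytb was next at 8557 CPM per kb, followed by mt-Nd1 at 7172, mt-Co3 at 6506 and mt-Co1 at 3972. mt-Nd6 was the lowest of the mRNAs in both, at 1.05 and 23.1 CPM per kb. Over the 14 members with at least 50 UMIs, the Spearman coefficient of UMI shares between the libraries was 0.94.

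Within the mt- UMIs, mt-Co1 held less and mt-Nd1 more in PD800. mt-Co1 made up 27.4% (26.8 to 27.9) and 13.2% (13.1 to 13.4) of them in PD100 and PD800. The mt-Nd1 share was 7.38% (7.05 to 7.73) and 14.8% (14.6 to 15.0). mt-Nd1 UMIs per 1000 mt-Co1 UMIs thus went from 270 to 1119. mt-Nd4 also had a smaller share in PD800, 8.67% against 5.61%, as did mt-Co3, 13.1% against 11.0%, and mt-Nd5, 0.769% against 0.645%, whose interval on the log2 scale (-0.49 to -0.01) spanned 0 without the endoderm-marker cells (-0.47 to 0.04). The shares of mt-Atp6 (18.3% and 23.4%), mt-Cytb (17.6% and 21.1%) and mt-Co2 (3.36% and 4.24%) were larger in PD800. mt-Co1, mt-Nd4, mt-Co3 and mt-Nd5 together held 49.9% of the mt- UMIs in PD100 and 30.5% in PD800.

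**Figure D3:**
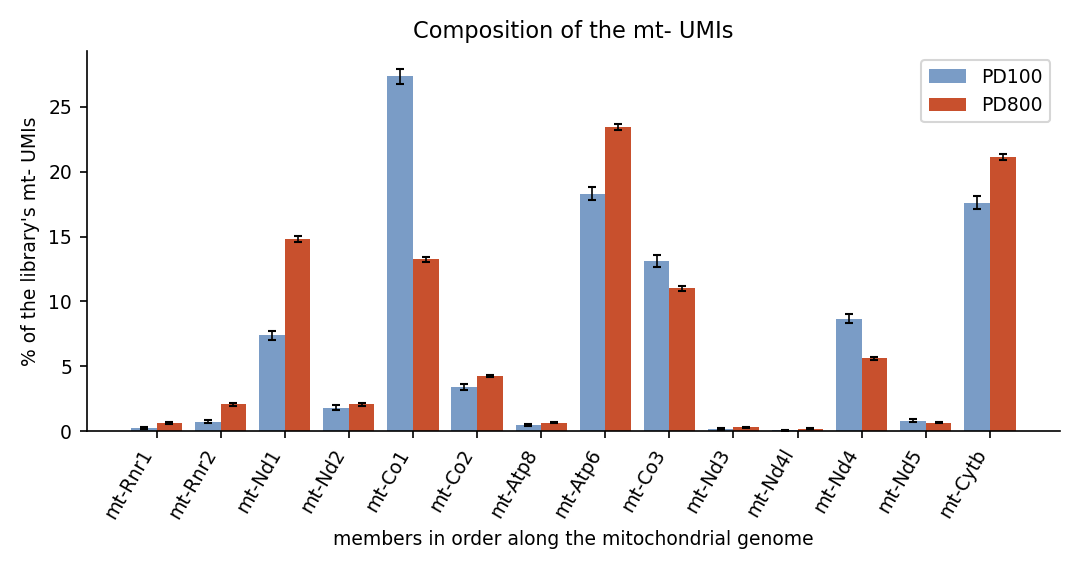
Share of each of the 14 tested members in its library's mt- UMIs (y axis, %), in order along the genome (x axis), for PD100 and PD800, with 95% counting intervals. mt-Co1 has 27.4% and 13.2%, and mt-Nd1 7.38% and 14.8%.

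The shift was present across cells and not carried by a few of them. Among cells with at least 20 mt- UMIs (595 in PD100, 896 in PD800), the median mt-Co1 share was 25.9% (quartiles 19.0% and 33.3%) and 12.8% (9.87% and 16.5%). The median mt-Nd1 share was 6.45% (2.74% and 11.1%) and 14.6% (11.3% and 17.9%). With each of these cells thinned to 20 mt- UMIs, a PD800 cell had more mt-Nd1 UMIs than a PD100 cell in 0.743 of pairs and more mt-Co1 UMIs in 0.178, ties counted as 0.5.

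Over bins of cells by mt- share, the shares of mt-Co1, mt-Nd1 and the rRNAs differed more between the libraries than within either. The bins were cut in each library apart, so their median mt- shares do not match. The highest PD100 bin (1.60% to 5.27%) and the lowest PD800 bin (0 to 3.67%) overlap in range, but cells of equal mt- share were not compared. Library and mt- share thus cannot be told apart in these bins. In 4 equal bins of PD100 cells by mt- share, mt-Co1 was 30.7%, 27.5%, 26.6% and 26.3% of mt- UMIs from the lowest to the highest bin. In the PD800 bins it was 13.4%, 13.1%, 13.3% and 13.2%. The highest PD100 bin and the lowest PD800 bin had median mt- shares of 1.89% and 3.29% and mt-Co1 shares of 26.3% (25.3 to 27.3) and 13.4% (13.0 to 13.9). mt-Nd1 ran from 7.06% to 7.71% over the PD100 bins and from 14.6% to 15.4% over the PD800 bins. The rRNAs held 1.37% (1.01 to 1.80) in the lowest PD100 bin and 0.690% (0.519 to 0.900) in the highest, and lay between 2.57% and 2.83% in PD800.

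**Figure D4:**
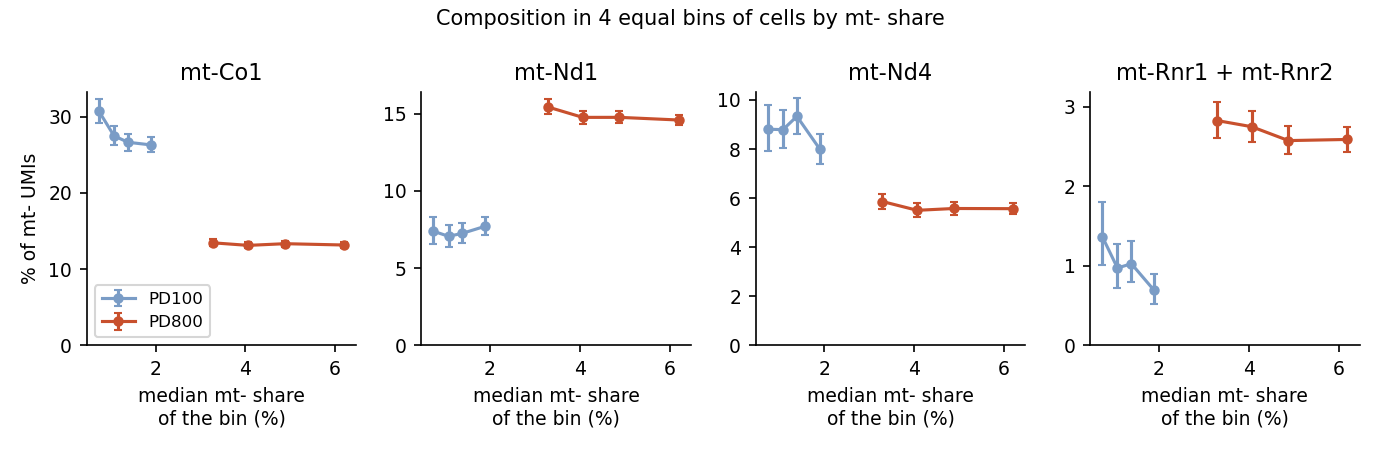
Share of mt-Co1, mt-Nd1, mt-Nd4 and the 2 rRNAs in the mt- UMIs (y axes, %) in 4 equal bins of cells ordered by mt- share, placed at the bin's median mt- share (x axes, %), with 95% counting intervals. In these kept cells the libraries stay apart in each panel, and mt-Co1 in PD100 slopes from 30.7% to 26.3%.

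Shares in bins of depth and of endoderm marker content stayed on the side of their own library, with differences within it. mt-Co1 was 27.5% of mt- UMIs in PD100 cells of at least 1000 but under 2000 UMIs and 29.0% in those of 4000 or more, and 13.9% and 13.0% in PD800. The 58 PD100 cells with at least 5 endoderm marker UMIs had a mt-Co1 share of 31.8% (29.7 to 34.0), against 27.0% (26.4 to 27.6) in the other PD100 cells. Their rRNA share was 1.49% (0.986 to 2.17), against 0.906% (0.782 to 1.04). In PD800, 5 cells met that criterion, with an rRNA share of 5.29% (3.99 to 6.86), against 2.64% (2.55 to 2.73) in the other cells. These intervals do not cover differences between cells, and the largest mt-Rnr2 count in a single PD800 cell was 35 UMIs. The share of so few cells could therefore rest on any of them. Without the endoderm-marker cells the summed log2 ratio stayed within its counting interval.

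The ratios were set beside position, length, base composition and level. The Spearman coefficient of the log2 ratio with position along the genome was -0.38 over the 14 tested members, -0.15 over the 12 mRNAs and -0.61 over the 12 members with at least 50 UMIs in PD100 alone. With the length of the annotated gene it was -0.47 over the 14 and -0.80 over the mRNAs, among which mt-Nd4l and mt-Nd3 are short and passed the minimum only through PD800. Over the 10 mRNAs with at least 50 UMIs in PD100 alone it was -0.77, from mt-Atp8 at 204 bases to mt-Co1 and mt-Nd5 at 1545 and 1824 bases. mt-Nd4l and mt-Atp8 share an mRNA with mt-Nd4 and mt-Atp6, so their gene lengths are not the lengths of their RNAs. With level the coefficient was -0.51 over the 14 and -0.36 over the mRNAs, and with GC content -0.18 and -0.07. Over 6774 tested nuclear genes the coefficient of the ratio with the longest transcript was -0.0090, although the 147 of them under 700 bases had a median log2 ratio of 0.35, against -0.36 for the others. These are descriptions over genes that share libraries and base composition.

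Several members share sequence with nuclear genes. Of the annotated nuclear genes, 7 hold at least 50% of their 31-base words in common with a member (mt-Nd4l, mt-Atp6, mt-Co3, mt-Nd4, mt-Co2, mt-Nd3 or mt-Co1), and none of them had a column. Nuclear genes held 99.5% of the 31-base words of mt-Atp6, 100.0% of mt-Co2, 99.9% of mt-Co3, 98.9% of mt-Nd4l, 98.1% of mt-Nd3, 63.9% of mt-Co1 and 62.8% of mt-Nd4. How reads that fit both places were counted is not given in the sources used here, so the values of these members are uncertain to that extent. Over the 12 mRNAs the log2 ratio had a Spearman coefficient of -0.05 with this percentage.

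Cells varied in mt- composition beyond sampling. Given each cell's mt- total, the dispersion index, which is 1 when cells differ only by multinomial sampling, had a median over the 14 members of 1.65 in PD100 and 1.73 in PD800. mt-Co1 had the highest index in both libraries, 2.02 and 3.12, and mt-Rnr2 followed in PD800 at 3.00. mt-Atp8 stayed at 0.965 and 0.936. In the cells with at least 20 mt- UMIs the medians were 1.75 and 1.73 at full depth, and 1.39 and 1.12 with the same cells thinned to 20 mt- UMIs, so the order of the libraries turned.

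The abundant members went up and down together from cell to cell. The 6 that averaged 0.5 UMI or more in thinned cells of each library were mt-Nd1, mt-Co1, mt-Atp6, mt-Co3, mt-Nd4 and mt-Cytb, and all 15 pairs of them correlated positively over cells thinned to 1000 UMIs. Pearson's r averaged 0.132 over the pairs in PD100 (0.089 to 0.223) and 0.316 in PD800 (0.162 to 0.480), and PD800 cells held more mt- UMIs after thinning, a mean of 47.6 against 13.0. mt-Atp6 with mt-Cytb was the highest pair in both libraries.

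Once each cell's mt- total was taken into account, the 6 members divided around mt-Co1 in PD800. They held 92.4% of the mt- UMIs in PD100 and 89.2% in PD800, so their residuals given that total are tied to each other. Over the pairs, the difference from sampling averaged -0.0022 in PD100 and -0.0044 in PD800. Positive values in some pairs thus stand beside negative ones in others. The residual correlation of a pair less that expected from sampling was 0.18 for mt-Co1 with mt-Nd4 and 0.18 for mt-Co1 with mt-Co3 in PD800, but -0.18 for mt-Co1 with mt-Nd1 and -0.18 with mt-Cytb. mt-Cytb was positive with mt-Nd1 (0.14) and mt-Atp6 (0.12), while mt-Nd4 with mt-Co3 gave -0.05. In PD100, mt-Atp6 with mt-Cytb gave 0.13, mt-Co1 with mt-Cytb -0.13 and mt-Atp6 with mt-Co3 -0.10, whereas mt-Co1 with mt-Nd4 gave 0.0049 and with mt-Co3 0.07. mt-Nd4 and mt-Co3, positive with mt-Co1 in PD800, were also among the members with a smaller share in that library.

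**Figure D5:**
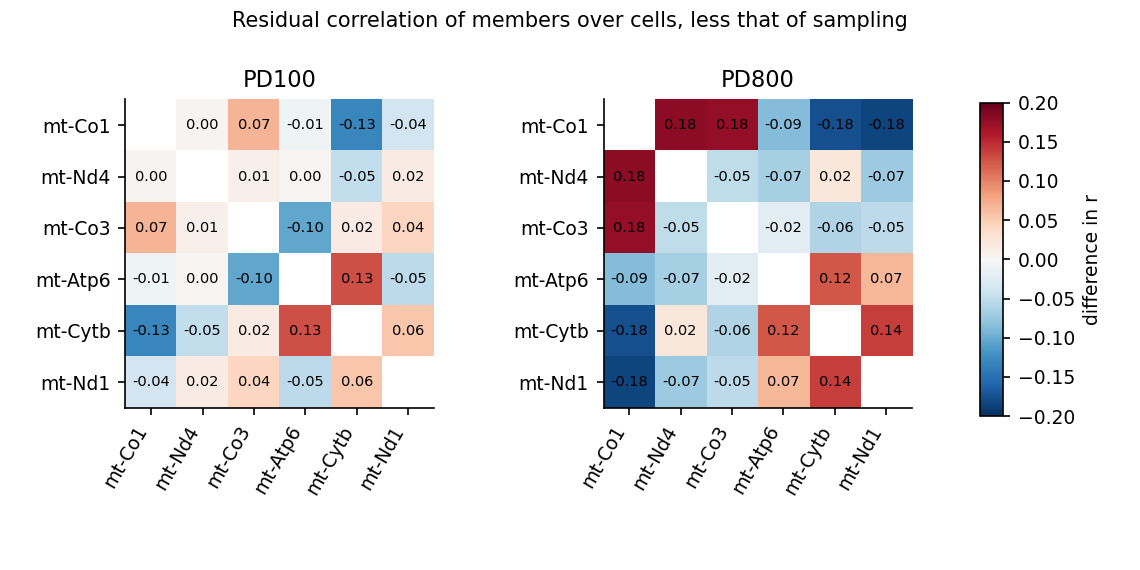
Correlation of each pair of the 6 abundant members over cells, given the cell's mt- total, less the correlation that multinomial sampling gives (colour scale, difference in r), in PD100 (814 cells) and PD800 (900 cells). In PD800 mt-Co1 is positive with mt-Nd4 and mt-Co3 (0.18 each) and negative with mt-Cytb and mt-Nd1 (-0.18 each).

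The nuclear genes most like the mt- share over cells were ranked in each library apart, and the rankings were not compared. Of 1868 genes that averaged 0.1 UMI or more in thinned PD100 cells, the highest Spearman coefficients with the mt- share were those of Dnajb14 (0.30), Rpl41 (0.26) and Dppa5a (0.23), and the lowest those of Krt18 (-0.10), Zbtb8os (-0.09) and 1110004F10Rik (-0.09). Of 1606 genes in PD800 the highest were Cox6a1 (0.27) and Cox4i1 (0.24), which encode nuclear subunits of complex IV, and Dbi (0.23), and the lowest were Ezh2 (-0.11), Cops4 (-0.09) and Tmem126a (-0.08). The median gene was at 0.03 in both, and all were weak. Summed as a share of a cell's other UMIs, the nuclear complex IV subunits had a coefficient of 0.20 in PD800. The sums were at 0.07 for complex I, 0.06 for the ATP synthase, 0.02 for complex III and 0.0011 for complex II.

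The nuclear genes that complete the same complexes had lower median ratios than the 12 tested mt- mRNAs, whose median log2 ratio was 2.19. Among those mRNAs, mt-Nd3 and mt-Nd4l passed the minimum only through PD800, where they were high. The 12 members with at least 50 UMIs in PD100 alone, which include both rRNAs, also had a median of 2.19. The counts past 2-fold in these and the lists that follow stand beside 9.22% of all tested genes higher and 16.9% lower, and several shares are near those. For complex I, 4 of 36 tested subunits were at least 2-fold higher and 0 lower, with a median log2 ratio of 0.32, from Ndufa2 (1.24) and Ndufa3 (1.17) to Ndufv1 (-0.81). Complex II, which has no mitochondrially encoded subunit, had 0 of 4 past 2-fold either way and a median of -0.15 (Sdha -0.05, Sdhb -0.08, Sdhc -0.21, Sdhd -0.40). For complex III, 1 of 9 was higher and 0 lower with a median of 0.05, from Uqcrb (2.14) and Uqcr11 (0.68) to Uqcrc1 (-0.72) and Cyc1 (-0.75). For complex IV, 1 of 12 was higher and 1 lower with a median of 0.51, from Cox7b (1.91) and Ndufa4 (0.67) to Cox4i1 (-0.36) and Cox7a2l (-1.07). For the ATP synthase, 4 of 17 were higher and 0 lower with a median of 0.42, from 2010107E04Rik (3.12) and Atp5e (1.83) to Atp5d (-0.32) and Atp5b (-0.37).

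Genes that act on mitochondrial DNA and RNA had a median log2 ratio of -0.77, with an interval (-1.08 to -0.12) that holds the -0.34 of all tested genes, and nearly equal sums of 1648 and 1624 CPM. Of 34 listed, 25 were tested, of which 2 were at least 2-fold higher and 10 lower, beside 9.22% and 16.9% of all tested genes. Slirp, which with a partner stabilises mitochondrial mRNAs, was at 1.70 (1.50 to 1.89) and Mterf2 at 1.80 (0.84 to 2.88), whereas Supv3l1, a helicase of the RNA-degrading complex, was at -1.93 (-2.69 to -1.22) and Tbrg4 at -1.77 (-2.23 to -1.32). Among protein genes of the mitochondrial ribosome, 4 of 76 were higher and 2 lower with a median of -0.21, from Mrpl9 (2.16) and Mrps26 (1.60) to Mrpl16 (-1.02) and Mrps31 (-1.08).

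Cytosolic ribosomal protein genes had 10 of 82 higher and 3 lower with a median log2 ratio of 0.15, from Rpl36a (2.72) and Rpl10l (2.60) to Rplp0 (-1.05) and Rpl15 (-1.09). Of 8 tested genes of the mitochondrial and integrated stress responses, 0 were higher and 1 lower with a median of -0.38, from Hspa9 (0.29) and Asns (-0.20) to Atf4 (-0.96) and Psat1 (-1.48). Among the 5 nuclear-retained RNAs, Meg3 was at 1.20 and Kcnq1ot1 at 0.19, whereas Malat1 was at -0.68 and Neat1 at -1.15, with a median of -0.42. The part of RNA quality in the mt- result was not tested.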

How the data were processed

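Single-cell RNA was measured in 1 inDrops library per passage. The deposited tables hold raw counts, UMIs of each gene in each barcode, obtained by the authors from the inDrops pipeline on a transcriptome of the GRCm38 (mm10) assembly, and the submitters' notes also name Scanpy. The annotation release, and how reads with several matches were handled, are not given in the sources used here. Here, barcodes with fewer than 1000 UMIs or over 20% mt- UMIs were left out, which removed 477 PD100 and 766 PD800 barcodes. No doublet caller was run. Counts were summed over cells and divided by the library total (CPM). Ratios carry exact conditional intervals, sums exact Poisson intervals and shares exact binomial (Clopper-Pearson) intervals, all at 95%. UMIs count captured molecules, and the intervals cover counting error only. With 1 library per passage no test was made. Past-fold counts use genes with 50 or more UMIs in the libraries together and a fixed fold of 2. A list's interval is that of the median by order statistics over its genes. The dispersion index is the Pearson chi-square of a member's counts given the cells' mt- totals, divided by the cells less 1. Excess correlation is that of the residuals less the multinomial value. Thinning to 1000 UMIs used seed 1. The ratio intervals, the dispersion index and the thinning were tested on simulated data. The excess correlation and the other procedures were not. Positions and sequences are from GENCODE M21 (GRCm38). Computing used Python 3.11.15, NumPy 2.4.6, SciPy 1.17.1 and pandas 2.3.3.

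All 37 members were accounted for and those with at least 50 UMIs named, with the 3 tRNAs of most UMIs. For each nuclear list the 2 highest and 2 lowest tested genes were named, except 1 that is not reported here, and for each library the 3 genes most and least like the mt- share. mt-Nd6 was described outside that rule. The members and lists were chosen with earlier results of these data known.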

Additional observations from a re-analysis of the deposited data

Results flagged for a closer look

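The barcodes that the cell filter left out, and no comparison above used, carried mt- UMIs too, far above the 12.2 and 6.54 CPM that a count of 0 allows in them. The 477 PD100 barcodes gave 17391 CPM (16874 to 17919) and the 766 PD800 barcodes 73382 CPM (72600 to 74171), a log2 ratio of 2.08 (2.03 to 2.12). In the 8 of these PD800 barcodes with at least 1000 UMIs, the mt- share lay between 20.2% and 34.5%. They were left out for that share itself, as 0 PD100 barcodes were, which raises the ratio. In barcodes under 1000 UMIs, 1.74% of the PD100 UMIs and 6.83% of the PD800 UMIs were mt-. Their median share per barcode was 1.09% and 3.49%, below the 1.23% and 4.42% of the kept cells. mt-Co1 was 24.2% of the mt- UMIs in the PD100 barcodes under 1000 UMIs, against 27.4% in the kept cells, and 12.2% against 13.2% in PD800. mt-Nd1 was 10.6% against 7.38% in PD100 and 19.3% against 14.8% in PD800. The composition thus also differed within each library between barcodes left out and kept.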

How the results depend on the processing

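Every alternative kept the direction of the summed mt- level, of the mRNA and rRNA classes and of each of the 14 tested members. The summed log2 ratio, 1.89, was 1.96 with at least 2000 UMIs per cell, 1.94 over all barcodes, 1.92 without the limit on the mt- share, 1.86 with at most 10% mt-, 1.82 in cells of 1000 to 2000 UMIs, 1.94 on totals without mt- UMIs, 2.23 on the median of ratios and 1.86 as the mean of cell shares. That of the mRNAs, 1.86, was 1.93, 1.92, 1.89, 1.84, 1.79, 1.91 and 2.20 under the first 7 of these, and that of the rRNAs, 3.37, was 3.71 on the median of ratios. The number of members at least 2-fold higher, 13, ran from 11 to 14, and 0 were at least 2-fold lower throughout, members with at most 3 UMIs in each library being given no fold. The median share per cell was 1.14% in PD100 with at least 2000 UMIs, 1.36% in cells of 1000 to 2000 UMIs, and 4.25% in PD800 over all barcodes. Position gave -0.15 over the mRNAs alone and -0.61 over the 12 members with at least 50 UMIs in PD100 alone, which was also added then and gave 11 members at least 2-fold higher. The dispersion medians were 1.39 and 1.12 after thinning to 20 mt- UMIs and leaving out shallower cells, and 1.75 and 1.73 in those cells not thinned (added after seeing the data). The mean r was 0.19 and 0.41 without thinning. On the median of ratios, which adds the same 0.34 to each value, the list medians became 0.66 (complex I), 0.85 (complex IV), 0.76 (ATP synthase) and 0.49 (cytosolic ribosome), and those of complex II and the mitochondrial ribosomal proteins changed sign, to 0.20 and 0.13. Leaving out cells whose barcode is in both libraries, chosen after seeing the data, moved none of the 5 results it was applied to beyond its counting interval. Adding nuclear copies to the members was not run, because none of those that share at least 50% of their 31-base words has a column; 3 that share fewer have one. No paired analysis was possible because each passage has 1 library. The median of the genes that act on mitochondrial DNA and RNA, -0.77, was -0.42 (-0.74 to 0.22) on the median of ratios. The smaller mt-Nd5 share spanned 0 without the limit on the mt- share, in cells of 1000 to 2000 UMIs and without the endoderm-marker cells. Few UMIs limit the tRNAs, where neither direction of the CPM ratio could be told.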
